A study of Mus musculus with 8 samples.

Results

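The genes described here are 10 genes of the chemokine system: the receptors Cxcr4, Cxcr2, Cxcr3, Cx3cr1, Ccr1, Ccr2, Ccr7 and Ccr9, the atypical receptor Ackr3, and the ligand Cxcl12. They were chosen by name, with earlier results of these data known. Rows with the same gene identifier were summed, which gave 10 of 46113 genes in the files. RNA was measured by sequencing in 2 cell fractions sorted from the bone marrow of C57BL/6 mice aged 8 to 10 weeks. The first, HSC, is the CD150+ CD34- part of the lineage-negative, Sca1+ and c-Kit+ cells, and the second, HPC, is the CD150+ CD34+ part of the same compartment. There were 4 libraries of HSC and 4 of HPC, with no treatment or genetic change named, and the labels describe RNA from 5000 sorted cells amplified by 18 cycles of PCR. The labels conflict in part: titles, cell type and sorting markers separate HSC from HPC, but the source field calls every sample stem cells and the extraction text speaks of sorted HSCs throughout. The groups follow the titles. The comparison asked how stem cell and progenitor RNA differ. The labels do not state whether the libraries of a group came from separate animals or sorts, so the p-values measure only the spread between these libraries.

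Chemokines are small secreted proteins that guide moving cells. They act on receptors that cross the membrane and signal mainly through inhibitory G proteins, after which arrestins and receptor kinases switch the receptor off. In the bone marrow, Cxcl12 made by stromal cells holds Cxcr4-bearing blood stem and progenitor cells in place, and Ackr3 binds the same ligand and removes it without signalling through G proteins. Ccr7 and Ccr9 are known for guiding lymphoid cells to lymph nodes and to the thymus or gut, whereas Ccr2, Ccr1, Cx3cr1 and Cxcr2 are known for moving monocytes and granulocytes.

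Each library held 16291733 to 20564901 reads in exons. Levels are given as CPM, exon read counts scaled to the size of the library with its TMM scaling factor. In a library a count of 0 allows a level of up to 0.146 to 0.184 CPM, counting error only. These limits were taken on total exon reads without the TMM factor, so they are approximate on the scale of the levels. Transcripts of the sorting markers were set against the labels. Cd34 was at 120 ± 15.4 CPM in HSC and 1276 ± 55.9 in HPC (SD, n = 4 libraries each). Slamf1, which encodes CD150, was at 37.6 ± 6.02 CPM in HSC and 3.14 ± 0.736 in HPC, so the fraction labelled CD150+ CD34+ had the lower Slamf1 RNA in every library. The surface protein was not measured in these files. Kit did not differ by the test (edgeR adjusted p = 0.08). In bulk RNA, fewer cells that express a gene and less RNA in each cell cannot be told apart.

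HSC held less RNA of most of these receptors and more Cxcl12 than HPC. Cxcr4, Cxcr2, Cx3cr1, Ccr1, Ccr7 and Ccr9 were lower in HSC, Cxcl12 was higher, Ccr2 and Cxcr3 did not pass the test, and Ackr3 had too few reads to be tested. The fit used edgeR's quasi-likelihood test over 12751 genes with Benjamini-Hochberg adjustment and a threshold of 0.05, and it called 37.1% of all genes tested, with 19.6% higher and 17.6% lower in HSC. Of the 9 of 10 genes here that passed the count filter, 7 were called, 1 higher and 6 lower. Their median log2 change was -1.50, beside 0.00 over all genes tested. For 5 genes (Cxcr4, Cxcr2, Cx3cr1, Ccr7 and Ccr9) each HSC library lay below each HPC library, and Cxcl12 and the other 4 overlapped. Libraries did not overlap for 36.7% of all genes tested, 19.5% with HSC higher and 17.2% with HSC lower.

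**Figure D1:**
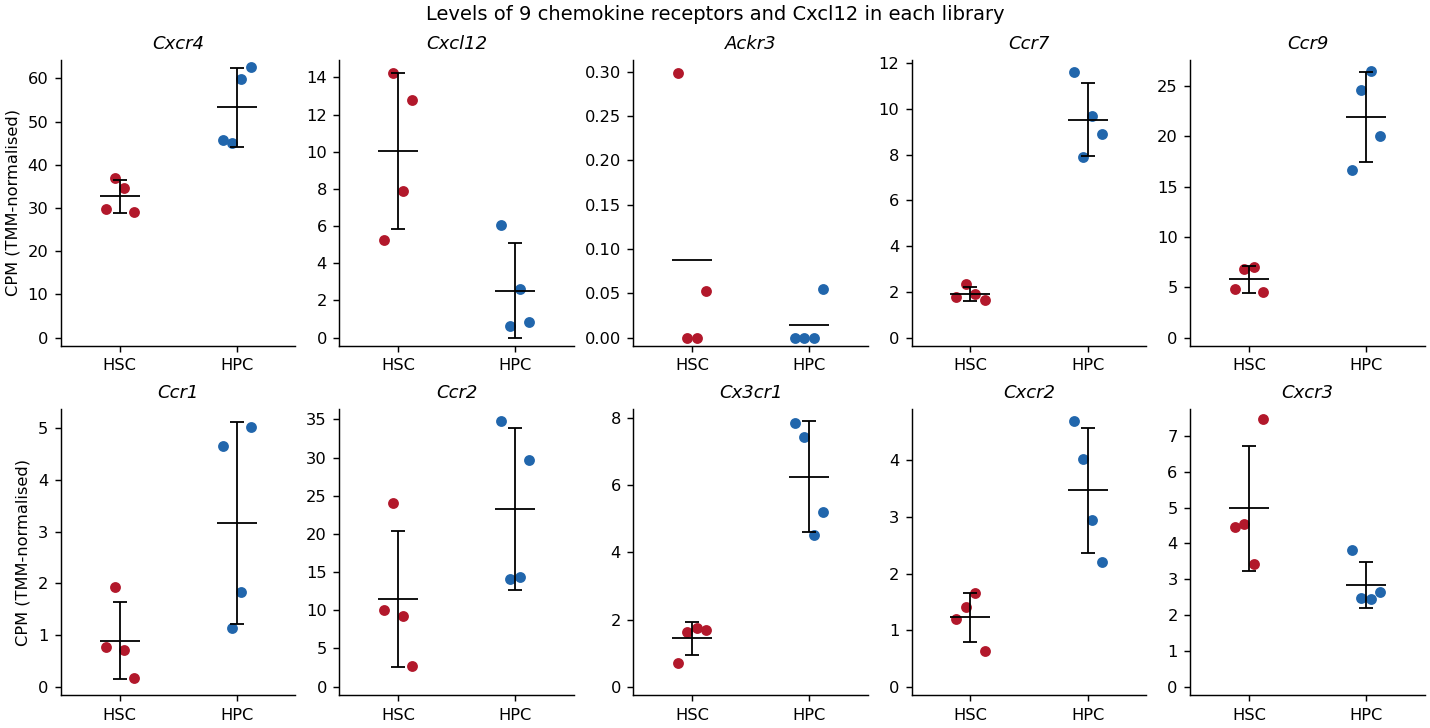
Level of each gene (vertical axes, CPM, each starting at about 0 with its own scale) in the 4 HSC libraries (red) and 4 HPC libraries (blue). Points are libraries, the horizontal line is the mean and the bars are the SD, left out for Ackr3. The 2 groups of points are separate for Cxcr4, Ccr7, Ccr9, Cx3cr1 and Cxcr2, and overlap for Cxcl12, Ackr3, Ccr1, Ccr2 and Cxcr3.

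The first group was Cxcl12 and its receptors, Cxcr4 and Ackr3. Cxcr4 (gene 12767, mm10 chr1:128588199-128592311, minus strand) was at 29.8, 37.0, 34.7 and 29.2 CPM in HSC libraries 1 to 4 and at 45.8, 45.0, 59.8 and 62.5 CPM in HPC libraries 1 to 4. All HSC libraries lay under all HPC libraries. The means were 32.6 ± 3.78 and 53.3 ± 9.18 CPM (SD, n = 4), 1.63-fold lower in HSC, or -0.71 ± 0.14 on the log2 scale (SE; adjusted p = 0.0012 by edgeR). Of the 7 called, this was the smallest change, and it came from the gene with the most reads, 2449 in HSC and 3977 in HPC.

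Cxcl12 (gene 20315, mm10 chr6:117168535-117181368, plus strand) encodes the ligand itself. It was at 5.25, 14.2, 7.90 and 12.8 CPM in HSC and at 6.08, 0.596, 2.62 and 0.8286 CPM in HPC. HPC libraries 2, 3 and 4 lay below every HSC library, while HPC library 1 lay above HSC library 1. The means were 10.0 ± 4.18 and 2.53 ± 2.53 CPM, 3.96-fold higher in HSC, or 1.99 ± 0.57 on the log2 scale (SE; adjusted p = 0.013 by edgeR). Without HPC library 1 the log2 change was 2.89 (edgeR adjusted p = 0.00075). Reads that cross an exon junction of Cxcl12 numbered 7, 27, 17 and 43 in HSC and 15, 1, 5 and 0 in HPC. HSC library 1 was the lowest of its group and HPC library 1 the highest of its group in these reads too.

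Because stromal and endothelial cells of the marrow are known sources of Cxcl12, their markers are given beside it. The summed level of 10 stroma markers was 4.35, 12.3, 3.92 and 3.74 CPM in HSC and 2.38, 0.894, 0.613 and 4.92 CPM in HPC. Of these 10, 8 were under 1 CPM in every library, Ebf3 was at 0 in every library, and Lepr, which defines the Cxcl12-rich stroma, was at 0.402 ± 0.309 CPM in HSC and 0.132 ± 0.264 in HPC. Col1a2, the most abundant of them, was at 4.26 ± 3.16 and 1.59 ± 1.51 CPM (edgeR adjusted p = 0.092). HSC library 2 was highest in both Cxcl12 and the stroma sum, but HSC library 4 had the second highest Cxcl12 and the lowest stroma sum of the HSC libraries. The sum of 8 endothelial markers was 45.8 to 54.3 CPM in HSC and 22.5 to 34.8 CPM in HPC, and 4 of the 7 tested were higher in HSC, none lower. The share called was 57.1%, beside 37.1% over all genes tested (19.6% higher in HSC). Emcn was the most abundant of the 8 in TPM in both fractions. The part of stromal and endothelial cells in the Cxcl12 level was not tested.

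**Figure D2:**
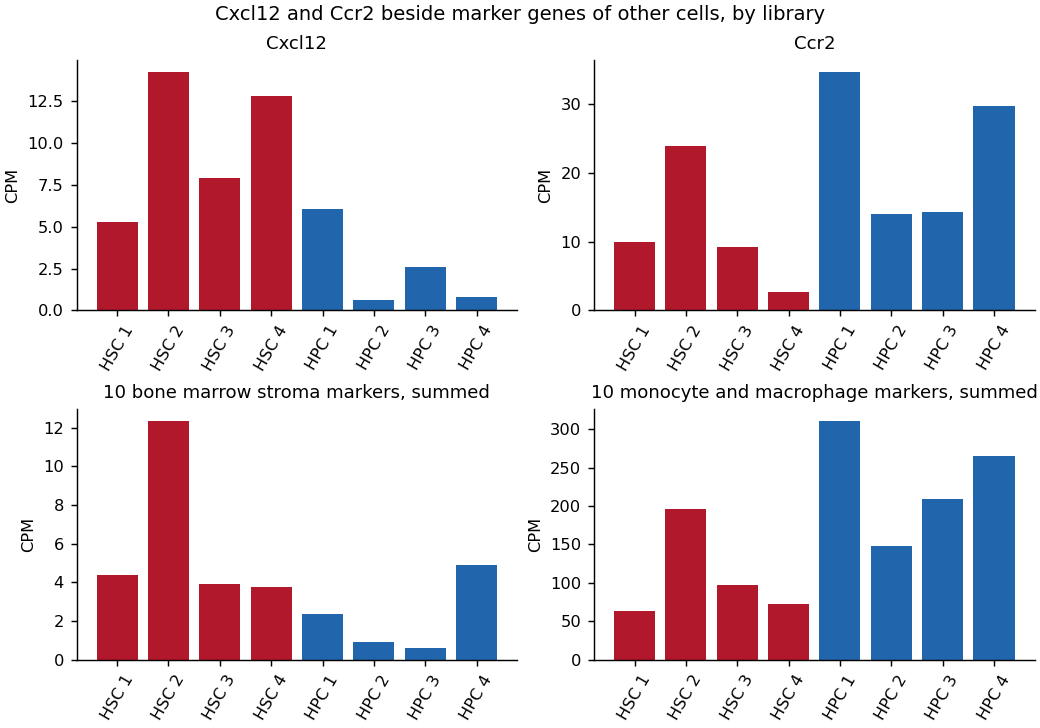
Levels in each library (bars from 0, CPM; HSC red, HPC blue) of Cxcl12 and Ccr2 above the summed levels of 10 bone marrow stroma markers and 10 monocyte and macrophage markers. HSC 2 has the tallest HSC bar in all 4 panels, and HSC 4 combines 12.8 CPM of Cxcl12 with a stroma sum of 3.74 CPM.

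Ackr3 (gene 12778, mm10 chr1:90203980-90215724, plus strand), the scavenging receptor for Cxcl12, was near the limit of detection. It had 5, 0, 0 and 1 exon reads in the HSC libraries and 0, 0, 0 and 1 in the HPC libraries. No read crossed an exon junction, and 76.7% of the 30 reads over the gene lay in introns. It did not reach the count filter, and in the fit without the filter the adjusted p was 0.38 by edgeR, so no difference was detectable at this depth.

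The DNA before the start of Cxcr4 and of Cxcl12 is shown because these genes, the receptor and its ligand, moved in opposite directions. Both stretches are the 250 bases before the annotated start in RefSeq (GRCm38.p6), chr1:128592300-128592549 on the minus strand and chr6:117168285-117168534 on the plus strand, written 5′ to 3′ along the gene. For Cxcr4 the gene as counted starts at 128592311, inside the window shown, so the distances below refer to the RefSeq start only. Capitals mark matches to the motifs searched.
Cxcr4: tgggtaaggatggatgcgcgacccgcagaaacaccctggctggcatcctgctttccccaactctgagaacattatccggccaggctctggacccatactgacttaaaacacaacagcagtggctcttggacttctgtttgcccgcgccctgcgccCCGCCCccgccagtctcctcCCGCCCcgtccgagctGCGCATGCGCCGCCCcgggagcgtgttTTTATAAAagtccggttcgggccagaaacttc
Cxcl12: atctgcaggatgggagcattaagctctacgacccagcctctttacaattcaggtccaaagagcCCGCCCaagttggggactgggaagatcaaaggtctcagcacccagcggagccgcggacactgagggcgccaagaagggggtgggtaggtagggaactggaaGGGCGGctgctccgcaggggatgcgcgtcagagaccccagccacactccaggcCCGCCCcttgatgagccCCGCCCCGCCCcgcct
The motifs, searched on both strands, were the GC box GGGCGG, the TATA box TATAAA, the perfect NRF1 palindrome, the RUNX core TGTGGT, the ETS core AGGAAGT and the hypoxia element core ACGTG. Cxcr4 had 3 GC boxes, overlapping matches to the TATA box on both strands that begin 32 and 30 bases before the start, and the NRF1 palindrome, which begins 59 bases before the start and overlaps a GC box. Cxcl12 had 5 GC boxes, 2 of them overlapping, and none of the other motifs. A GC box was present in 32.7% of the 32851 RefSeq promoter windows of this length, TATAAA in 12.4% and the NRF1 palindrome in 0.782%. Among the 9 genes with a window in the table, Ackr3 also had a GC box and TATAAA, and the RUNX core (14.05% of windows) was found in Ackr3, Cx3cr1, Ccr1 and Cxcr3. The ETS core (7.69% of windows) was found in Cxcr3, and the hypoxia core (16.6%) in none of the 9. These are matches of letters only.

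The lymphoid homing receptors Ccr7 and Ccr9 were both lower in HSC, and in neither did the groups overlap. Ccr7 (gene 12775, mm10 chr11:99144199-99155077, minus strand) was at 1.79, 2.35, 1.91 and 1.63 CPM in HSC and at 11.6, 7.90, 9.70 and 8.89 CPM in HPC. The means were 1.92 ± 0.309 and 9.53 ± 1.58 CPM, 4.96-fold lower in HSC, or -2.30 ± 0.26 on the log2 scale (SE; adjusted p = 7.5e-06 by edgeR), the largest change among the 9 genes tested.

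Ccr9 (gene 12769, mm10 chr9:123767211-123783457, plus strand) was at 4.83, 6.80, 7.04 and 4.48 CPM in HSC and at 16.6, 24.6, 26.5 and 19.998 CPM in HPC. The means were 5.79 ± 1.32 and 21.9 ± 4.46 CPM, 3.79-fold lower in HSC, or -1.92 ± 0.21 on the log2 scale (SE; adjusted p = 6.1e-06 by edgeR). Markers of mature T and NK cells did not all move the same way as these receptors. Their summed level was 91.7 to 118 CPM in HSC and 295 to 384 CPM in HPC, carried mainly by Nkg7, a cytotoxic granule gene, at 44.6 ± 8.40 and 330 ± 40.8 CPM. Of the 8 tested, 5 were higher in HSC, among them Cd3e of the T cell receptor complex (13.4 ± 2.05 against 3.82 ± 0.689 CPM), and 1, Nkg7, was lower. The share called was 75%, beside 37.1% over all genes tested (19.6% higher and 17.6% lower). None of the 9 T and NK markers was at 0 in all libraries, and their part in the levels of Ccr7 and Ccr9 was not tested.

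Receptors of myeloid cells were lower in HSC for Cx3cr1, Cxcr2 and Ccr1, while Ccr2 did not pass the test. Cx3cr1 (gene 13051, mm10 chr9:120048683-120068296, minus strand), the fractalkine receptor of monocytes and macrophages, was at 0.715, 1.62, 1.76 and 1.69 CPM in HSC and at 7.88, 7.45, 4.51 and 5.19 CPM in HPC. All HSC libraries lay below all HPC libraries. The means were 1.45 ± 0.490 and 6.26 ± 1.66 CPM, 4.33-fold lower in HSC, or -2.10 ± 0.37 on the log2 scale (SE; adjusted p = 0.00036 by edgeR).

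Cxcr2 (gene 12765, mm10 chr1:74153994-74161246, plus strand), through which neutrophils are drawn out of the marrow, was at 1.19, 1.41, 1.66 and 0.633 CPM in HSC and at 4.70, 4.02, 2.95 and 2.21 CPM in HPC. The groups were again apart, at a low level in both. The means were 1.22 ± 0.438 and 3.47 ± 1.11 CPM, 2.84-fold lower in HSC, or -1.50 ± 0.43 on the log2 scale (SE; adjusted p = 0.013 by edgeR). Of 9 neutrophil markers, 5 were tested and none was called, Ly6g was at 0 in every library, and their sum was 6.70 to 15.2 CPM in HSC and 5.96 to 26.1 CPM in HPC. Over all genes tested, 37.1% were called.

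Ccr1 (gene 12768, mm10 chr9:123962126-123968692, minus strand), a receptor of several inflammatory CC chemokines, was at 0.775, 1.93, 0.704 and 0.158 CPM in HSC and at 4.65, 1.14, 1.84 and 5.03 CPM in HPC. HPC libraries 2 and 3 lay below HSC library 2, so the groups overlapped. The means were 0.893 ± 0.747 and 3.17 ± 1.96 CPM, 3.54-fold lower in HSC, or -1.82 ± 0.65 on the log2 scale (SE; adjusted p = 0.042 by edgeR). The call was lost in 7 of 17 alternative analyses, including those without HSC library 1 (edgeR adjusted p = 0.096), 3 (0.096) or 4 (0.083) and without HPC library 1 (0.12) or 4 (0.12).

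Ccr2 (gene 12772, mm10 chr9:124101918-124109140, plus strand), which lets monocytes leave the marrow, was at 10.0, 24.0, 9.20 and 2.69 CPM in HSC and at 34.7, 14.1, 14.3 and 29.7 CPM in HPC. HSC library 2 lay above HPC libraries 2 and 3, and the other HSC libraries lay below all of HPC. The means were 11.5 ± 8.97 and 23.2 ± 10.6 CPM, a log2 change of -1.02 ± 0.47 (SE) that missed the threshold (edgeR adjusted p = 0.11). Without HSC library 2 the log2 change was -1.68 (edgeR adjusted p = 0.0076).

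The sum of 10 monocyte and macrophage markers was 62.8, 196, 96.7 and 72.1 CPM in HSC and 311, 147, 209 and 265 CPM in HPC. HSC library 2, the highest HSC library in Ccr1 and Ccr2, was also the highest HSC library in this sum, and HPC libraries 1 and 4, the highest in Ccr1 and Ccr2, were the highest HPC libraries in it. Cx3cr1 and Cxcr2 did not share that order. Of the 9 markers tested, 2 were lower in HSC and none higher (median log2 change -0.70). The share called was 22.2%, beside 37.1% over all genes tested (17.6% lower in HSC). No marker was at 0 in all libraries, and Csf1r, the receptor that defines the lineage, was at 4.02 ± 2.89 CPM in HSC and 25.4 ± 7.41 in HPC. The part of such cells in the receptor levels was not tested.

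Cxcr3 (gene 12766, mm10 chrX:101731535-101734147, minus strand), a receptor for interferon-induced chemokines known from activated T and NK cells, was the one receptor tested whose mean was above HPC in HSC. It was at 4.47, 4.55, 3.42 and 7.49 CPM in HSC and at 3.81, 2.48, 2.45 and 2.65 CPM in HPC. HSC library 3 lay under HPC library 1, and the other HSC libraries lay above all of HPC. The means were 4.98 ± 1.75 and 2.85 ± 0.644 CPM, a log2 change of 0.80 ± 0.33 (SE) that missed the threshold (edgeR adjusted p = 0.074). Without HSC library 3 it was 0.96 (edgeR adjusted p = 0.048).

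**Figure D3:**
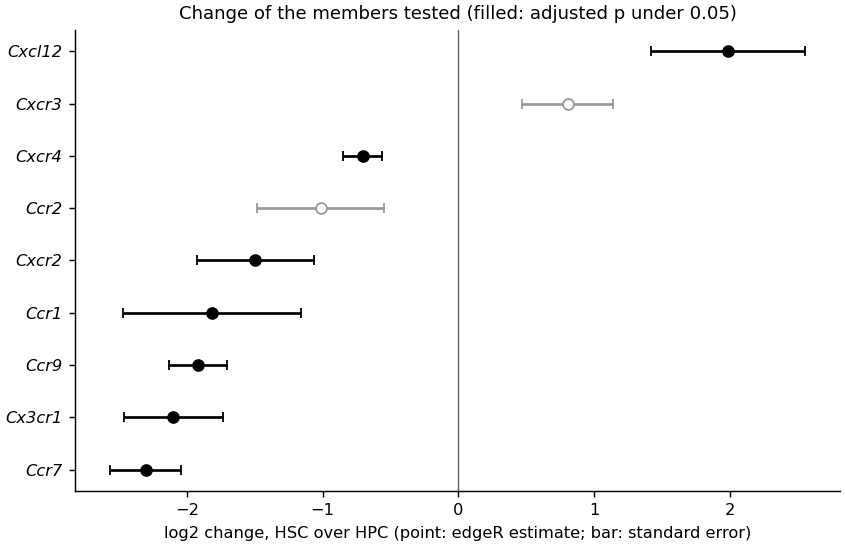
Log2 change of HSC over HPC (horizontal axis) for the 9 genes tested; points are edgeR estimates, bars are standard errors, and filled points have an adjusted p under 0.05. Cxcl12 lies at 1.99 and Cxcr3, open, at 0.80; the other 7 lie between -2.30 and -0.71, with Ccr2 open.

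To compare genes with one another, the deposited TPM values, which account for transcript length, were ordered within each fraction. In HSC the order by mean level was Cxcr4 (35.7 ± 6.32 TPM), Cxcr3 (6.13 ± 1.70), Ccr2 (5.96 ± 4.74), Cxcl12 (2.81 ± 1.15), Ccr9 (2.69 ± 0.787), Ccr7 (1.97 ± 0.411), Cxcr2 (0.805 ± 0.333), Cx3cr1 (0.780 ± 0.282), Ccr1 (0.651 ± 0.552) and Ackr3 (0.0737). In HPC it was Cxcr4 (55.4 ± 8.42 TPM), Ccr2 (11.2, from 6.996 to 17.3), Ccr9 (9.69 ± 2.25), Ccr7 (9.35 ± 1.79), Cxcr3 (3.43 ± 0.838), Cx3cr1 (3.23 ± 0.924), Cxcr2 (2.17 ± 0.752), Ccr1 (2.13 ± 1.26), Cxcl12 (0.696 ± 0.706) and Ackr3 (0.0106). Cxcr4 stood apart from the next gene in every library of both fractions. Otherwise, neighbours in the order were separate only between Ccr7 and Cxcr2 in HSC, and between Ccr7 and Cxcr3 and between Cxcl12 and Ackr3 in HPC; the rest overlapped. Cxcr3 held rank 2 in HSC and rank 5 in HPC, and Cxcl12 rank 4 in HSC and rank 9 in HPC.

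Other readouts of the same files were compared between genes over all 8 libraries. For the 9 genes other than Ackr3, 0.733% (Cxcl12) to 12.2% (Cx3cr1) of the reads over the gene lay in introns, below the median of 18.6% over all genes tested. Reads crossing an exon junction made up 5.20% (Cxcr4) to 13.5% (Cxcr3) of exon reads, against a median of 41.3%. All exon reads were uniquely placed except for 4 reads of Ccr2. No gene with annotated exons overlapped any of the 10.

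The genes whose level followed Cxcr4 most closely over the 8 libraries were Rap1a, a small GTPase of integrin control (Pearson's r of log2 CPM 0.98), Zfp101 (0.97) and Lin9 (0.97), out of 10568 genes compared. The 8 points share the difference between the fractions, so a gene lower in HSC to a like degree ranks high. Rap1a was at 125 ± 4.88 CPM in HSC and 180 ± 19.4 in HPC.

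The ligands of these receptors were read next, from a list of 38 other chemokine ligands. Of the 38, 17 were tested, 4 were higher and 3 lower in HSC, the other 10 tested were not called, and the median log2 change was 0.33. The 41.2% called was near the 37.1% over all genes tested. A further 10 had no exon read in any library, including Ccl19 and Ccl21a, the ligands of Ccr7. Cx3cl1, the ligand of Cx3cr1, was at 16.4, 15.7, 13.5 and 14.2 CPM in HSC and 1.80, 1.54, 0.836 and 2.49 CPM in HPC, without overlap. It was 8.99-fold higher in HSC, or 3.16 ± 0.29 on the log2 scale (SE; adjusted p = 8.3e-07 by edgeR), opposite in direction to its receptor.

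Ccl9, a ligand of Ccr1, was at 2.78 ± 1.51 CPM in HSC and 69.1 ± 10.9 in HPC, 24.8-fold lower in HSC (log2 change -4.62 ± 0.29, edgeR adjusted p = 1.9e-08). Ccl3, which also binds Ccr1, was at 1.18 ± 0.489 and 16.95 ± 4.07 CPM, 14.3-fold lower (edgeR adjusted p = 4e-07). Its span (chr11:83647843-83649378) overlaps that of Ccl4 (chr11:83648624-83664683) on the opposite strand, and no source used here says whether counting used strand. Ccl25, the ligand of Ccr9, was at 3.87 ± 0.443 and 3.34 ± 1.02 CPM (edgeR adjusted p = 0.65), and the Cxcr3 ligands Cxcl9 (adjusted p = 0.6) and Cxcl10 (adjusted p = 0.56; 2.68 ± 0.686 and 2.13 ± 0.660 CPM) were not called by edgeR. Ccl2, the main ligand of Ccr2, had 6 reads over the HSC libraries and 48 over the HPC libraries and was not tested. Mif, which can bind Cxcr4 and Cxcr2, was the most abundant ligand in TPM, at 234 ± 45.4 CPM in HSC and 316 ± 68.0 in HPC (edgeR adjusted p = 0.044), with overlapping libraries.

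**Figure D4:**
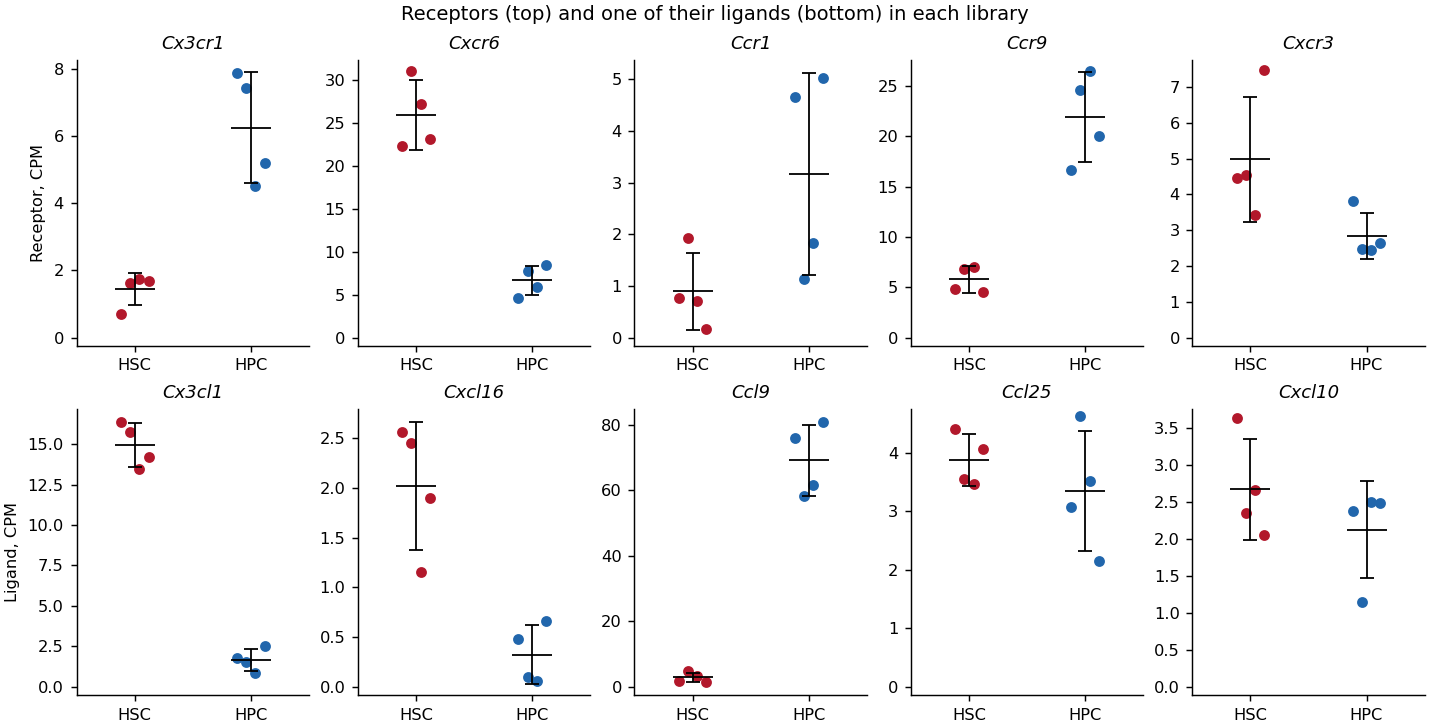
Levels (CPM, each panel from about 0 with its own scale) of 5 receptors above 1 ligand of each, in HSC (red) and HPC (blue); points are libraries, lines means and bars SD. Cx3cr1 and Cx3cl1 differ in opposite directions, Cxcr6 and Cxcl16 are both higher in HSC, Ccr1 and Ccl9 both lower, and Ccl25 and Cxcl10 overlap between the fractions.

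Among 16 other chemokine receptors, 7 were tested, 3 were higher in HSC, none was lower and 4 were not called, with a median log2 change of 0.48. The share called, 42.9%, was near the 37.1% over all genes tested. None of the other 9 reached the count filter. Cxcr6, the receptor of Cxcl16, was at 22.2, 30.9, 27.2 and 23.1 CPM in HSC and 4.60, 7.70, 5.91 and 8.40 CPM in HPC. It was 3.89-fold higher in HSC without overlap (log2 change 1.96 ± 0.21, edgeR adjusted p = 3.4e-06), and its ligand Cxcl16 was at 2.02 ± 0.644 and 0.323 ± 0.295 CPM (edgeR adjusted p = 0.0063). With only uniquely placed reads the log2 change of Cxcr6 was 1.99 ± 0.52 (SE, edgeR adjusted p = 0.0078). The other called receptors were Ccrl2 and the atypical receptor Ackr1. On chromosome 9, Cxcr6 (chr9:123806477-123811754) lies between Ccr9 and Ccr1, both lower in HSC, in the cluster that also holds Ccr2. Cxcr6 sits inside Fyco1 (chr9:123789500-123851899) on the opposite strand. Fyco1 was at 23.5 ± 5.45 CPM in HSC and 30.8 ± 4.45 in HPC (edgeR adjusted p = 0.1), and since no source used here says whether counting used strand, reads from exons on the shared stretch cannot be assigned by strand.

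Downstream of the receptors, G protein subunits were called in both directions, at a share near that of all genes tested. Of 18, all tested, 4 were higher and 4 lower in HSC, with a median log2 change of 0.02. The share called was 44.4%, beside 37.1% over all genes tested (19.6% higher and 17.6% lower). Gnai1, an inhibitory alpha subunit, was higher at 3.83 ± 2.24 against 0.315 ± 0.257 CPM (log2 change 3.57 ± 0.72, edgeR adjusted p = 0.0012), and Gng11, a gamma subunit, at 100.4 ± 8.52 against 23.3 ± 2.35 CPM (edgeR adjusted p = 5.9e-09). Gnai2, the inhibitory alpha subunit with more reads, was slightly lower, at 506 ± 18.6 against 620 ± 46.4 CPM (edgeR adjusted p = 0.018). Gng5, the most abundant subunit in TPM, was not called (edgeR adjusted p = 0.86).

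Of 15 arrestins, receptor kinases and RGS proteins, which end G protein signals, 14 were tested, 1 was higher and 4 lower in HSC (median log2 change -0.20). That share called, 35.7%, was near the 37.1% over all genes tested. Rgs2 was at 16.0 ± 3.77 CPM in HSC and 48.0 ± 3.84 in HPC (edgeR adjusted p = 2.5e-06). Arrb2, the arrestin known to carry Cxcr4 signals, was at 62.9 ± 5.41 and 129 ± 11.3 CPM (log2 change -1.04 ± 0.10, edgeR adjusted p = 1.7e-06). When only uniquely placed reads were counted, its log2 change was less precise, at -2.35 ± 0.52 (SE, edgeR adjusted p = 0.0025). Rgs18, the most abundant in TPM, was not called (edgeR adjusted p = 0.26).

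Of 32 kinases, exchange factors and GTPases of chemotaxis, all tested, 5 were higher and 17 lower in HSC, with a median log2 change of -0.30. The share called was 68.8%, beside 37.1% over all genes tested (19.6% higher and 17.6% lower). Pik3r6, an adaptor of the receptor-coupled PI3 kinase, had 8 reads over the HSC libraries and 300 over the HPC libraries (log2 change -5.15 ± 0.74, edgeR adjusted p = 7.1e-05; -3.57 when intron reads were included), and its catalytic partner Pik3cg was at 83.7 ± 15.7 and 152 ± 28.3 CPM (edgeR adjusted p = 0.00043). Rasgrp2, an activator of Rap1, was at 70.1 ± 3.10 and 206 ± 11.7 CPM (edgeR adjusted p = 6.8e-09). Arhgdib, the most abundant in TPM, was at 661 ± 52.7 and 1176 ± 85.9 CPM (edgeR adjusted p = 8.1e-06).

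Of 12 proteases and inhibitors that act on Cxcl12, its receptors or their surroundings, 10 were tested, 4 were higher and 5 lower in HSC, with a median log2 change of -0.23. The share called was 90%, beside 37.1% over all genes tested. Dpp4, which clips the start of Cxcl12, was at 49.7, 54.2, 54.6 and 40.0 CPM in HSC and 68.0, 67.3, 79.1 and 74.5 CPM in HPC, without overlap (log2 change -0.54 ± 0.12, edgeR adjusted p = 0.0025). The granule proteases Ctsg (3.35 ± 2.28 against 48.5 ± 16.0 CPM, edgeR adjusted p = 1.2e-06) and Elane (20.1 ± 11.6 against 108 ± 35.1 CPM, edgeR adjusted p = 4.7e-05) were lower as well. Mmp14, a membrane protease, was 9.19-fold higher in HSC (34.6 ± 1.54 against 3.76 ± 1.45 CPM, edgeR adjusted p = 7.1e-08), and the inhibitor Timp3 was higher too (40.4 ± 5.85 against 5.25 ± 1.40 CPM, edgeR adjusted p = 4.8e-08). Prtn3, the most abundant of the list in TPM, was lower (log2 change -0.71, edgeR adjusted p = 0.0049).

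Of 14 adhesion partners of homing, 13 were tested, 5 were higher and 5 lower in HSC, with a median log2 change of -0.03. That is a share of 76.9% called, beside 37.1% over all genes tested. Selplg, the P-selectin ligand and the most abundant of the list in TPM, was lower (log2 change -1.17, edgeR adjusted p = 1.7e-07). Among the 7 lists together, 145 genes were listed, 111 were tested, and 64 of those (57.7%) were called, 26 higher and 38 lower in HSC. Their median log2 change was -0.13. Over all genes tested, 37.1% were called and the median was 0.00. Because the lists were chosen with earlier results of these data known, the higher share called in them is a description only.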

How the data were processed

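The deposited files, 1 per library, give for each annotated gene the authors' read counts (exon, unique exon, intron, exon-exon and gene reads), TPM and RPKM values, and a fraction column, per the file headers. Reads were placed on mm10, per the submitters' processing notes. For the aligner, the counting rule and the use of strand, the entry is "not given in the sources used here". Counts of exon reads were deposited unnormalised and were summed here over rows with the same gene identifier, names with a suffix for alternate loci included. TPM as deposited by the authors was summed in the same way and used to order genes within a library. RPKM values and the fraction column in the authors' files were not used.

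HSC and HPC were compared with edgeR 4.0.16 in R 4.3.3 (filterByExpr, TMM scaling, quasi-likelihood test, Benjamini-Hochberg adjustment over 12751 genes, threshold 0.05). The SD is over 4 libraries, and differences are HSC minus HPC on the log2 scale. Groups were taken from the sample titles, although the source field and the extraction text name stem cells for all 8 samples. Libraries held 16291733 to 20564901 exon reads, and the limit for 0 reads is 3 reads. PCR duplicates could not be removed, so limits cover counting error only. On simulated counts for 12751 genes in this comparison, 34 of the 100 genes set to 1.5-fold were called, as were 73 of the 100 set to 2-fold, and 3 of 110 calls were false.

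The genes and lists were chosen with earlier results of these data known. Named were all 10 genes and, of each pathway list, the called genes of largest change and of smallest adjusted p (at a mean of 1 CPM or more), the gene most abundant in TPM, and the 3 genes most like Cxcr4 (mean of at least 5 CPM, 0.1 CPM added before the log2); other genes, such as ligands of the receptors, were named for their role after values were seen. Some genes that this rule picks are not reported here. Alternatives were DESeq2 1.42.0, voom with quality weights (limma 3.58.1), other scalings, filters and read types, a replicate block and leaving out each library.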

Additional observations from a re-analysis of the deposited data

Results flagged for a closer look

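With 20 gene and group pairs looked at, and chance setting apart about 1 group in 20, a library stood far from the other 3 of its group in 3 cases. Cxcr3 was at 3.81 CPM in HPC library 1, above the other HPC libraries, which lay between 2.45 and 2.65 CPM. Cx3cr1 was at 0.715 CPM in HSC library 1, under the other HSC libraries at 1.62 to 1.76 CPM. Ackr3 was at 0.0552 CPM in HPC library 4, which is 1 read where the other HPC libraries had 0.

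Intron reads, which no comparison above tests, were found for Ackr3 where its exon reads were at or near 0: 9 intron reads in HSC library 1, with 5 exon reads, and 8 in HPC library 1, with no exon read, both above the 3 reads that a count of 0 allows.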

How the results depend on the processing

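All 18 alternatives kept the direction of the 9 genes tested wherever they gave a value, and the calls of Cxcr4, Cx3cr1, Ccr7, Ccr9 and Cxcl12 held in each, as did Cxcr2 in the 17 that gave it a value. The number of these genes called was 7, with 5 to 8 over the alternatives and 6 to 8 when 1 library was left out; those higher in HSC numbered 1 to 2 without 1 library (2 without HSC library 3, where Cxcr3 passed) and those lower 5 to 7. Ccr1 lost its call in 7 of 17, including voom (log2 change -1.37, adjusted p = 0.11), and ranged from -2.53 to -1.47 without 1 library; Ccr2 was called without HSC library 2. Leaving out 1 library gave 2 to 5 called genes among the other receptors (5 without HSC library 4 or HPC library 1; 3 with all libraries) and 4 to 8 among the other ligands (4 without HPC library 1; 7 with all libraries). Voom called 8 of the arrestins, receptor kinases and RGS proteins, against 5 by edgeR. For these counts and genes, the cause was not tested. All genes called numbered 4733, and 4184 to 5428 over the alternatives. Upper quartile scaling moved the median of all genes to 0.08. With it, 15 of the kinases, exchange factors and GTPases of chemotaxis were called, against 22 in the main fit. Their number was 15 to 23 over the alternatives and 17 to 21 when 1 library was left out.

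Replicate numbers occur in both groups, but the deviations of same-numbered libraries correlated at -0.01, -0.12, 0.09 and 0.15, so the numbers were not taken to pair them. With the replicate block, 6 of these genes were called, 1 higher and 5 lower, Ccr1 losing its call (log2 change -1.89, adjusted p = 0.098), and 5036 of all genes.

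Depth limits Ackr3, for which no difference was detectable. Without the count filter, 4 other receptors and 8 other ligands were called, against 3 and 7 with it.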

Other observations

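Markers of other blood cells were summed in the same libraries, as a description of what each fraction held. The 9 mast cell, basophil and eosinophil markers summed to 19.4, 10.1, 101 and 11.4 CPM in HSC libraries 1 to 4, so that library 3 stood apart, and to 170 to 278 CPM in HPC, and 7 of the 9 were lower in HSC, among them Cpa3, a mast cell protease (2.58 ± 0.927 against 49.3 ± 4.83 CPM, edgeR adjusted p = 3e-09). The 8 dendritic cell markers summed to 100.4 to 127 CPM in HSC and 115 to 138 CPM in HPC, with 2 higher and 3 lower in HSC. The 7 red cell markers summed to 183 to 462 CPM in HSC and 40.9 to 161 CPM in HPC, with 3 of 7 tested higher in HSC. The 7 B cell and plasma cell markers summed to 122 to 193 CPM in HSC and 93.0 to 191 CPM in HPC, with 2 of 5 tested higher in HSC. Of the 7 megakaryocyte and platelet markers, 6 were tested, 4 were higher in HSC and 1 was lower. Over all genes tested, 37.1% were called, 19.6% higher and 17.6% lower in HSC. The shares called of red cell (42.9%) and of B cell and plasma cell markers (40%) were near that. The shares were 77.8% for mast cell, basophil and eosinophil, 62.5% for dendritic cell, and 83.3% for megakaryocyte and platelet markers. The chemokine Pf4, made by megakaryocytes, was at 54.9 ± 17.4 CPM in HSC and 62.1 ± 18.8 in HPC (edgeR adjusted p = 0.6), while Ppbp, also from that lineage, was higher in HSC (3.87 ± 2.40 against 1.61 ± 0.536 CPM, edgeR adjusted p = 0.043), with overlapping libraries.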
